A study of Mus musculus with 24 samples.

Results

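Expression of 10 astrocyte genes was examined in 24 mouse tumours of the cerebral cortex, out of 13218 genes tested. The 10 genes were Gfap, Aqp4, Aldh1l1, Aldoc, S100b, Gja1, Slc1a2, Slc4a4, Mlc1 and Fgfr3, chosen by name as markers of astrocytes. The array holds 26 probe sets that carry the symbol of 1 of them and no other gene. Each gene was represented by its probe set with the highest mean over the 24 arrays. The 16 other probe sets entered as an alternative. All 10 passed the filter on dim genes, a mean log2 value of at least 3.76.

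Each tumour arose from cells that expressed 1 of 3 class genes: 6 tumours carry the label RAB3A, 9 BC74C and 9 ZNF668. The RAB3A protein is a GTPase that acts in neurotransmitter release, ZNF668 encodes a zinc finger protein, and BC74C is not an approved gene symbol. A second label called 4 tumours HGG, which is not spelled out, 11 ependymoma, 5 TUMOR and 4 UNKNOWN. The RAB3A tumours comprised 2 labelled ependymoma, 2 TUMOR and 2 UNKNOWN, and none labelled HGG. The BC74C tumours comprised 2 HGG, 6 ependymoma and 1 UNKNOWN, and the ZNF668 tumours 2 HGG, 3 ependymoma, 3 TUMOR and 1 UNKNOWN. Strain, age, the promoter behind each class gene and the animal of origin are not given in the sources used here. The p-values therefore measure only the spread between these tumours. Normal cortex was not analysed here.

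Astrocytes take up glutamate, buffer water, potassium and bicarbonate around synapses and vessels, and are coupled to each other by gap junctions. After injury, inflammation or tumour growth they become reactive, a state in which the intermediate filament protein encoded by Gfap accumulates. Slc1a2 encodes the main glutamate transporter of astrocytes, Slc4a4 a sodium bicarbonate cotransporter and Aqp4 the water channel of astrocyte endfeet. Glioma cells can express astrocyte genes too. In bulk tumour RNA, fewer astrocyte-like cells and less RNA per cell cannot be told apart.

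The promoters of Gfap and Slc1a2, the genes at either side of the contrast between filament and transport, are shown as RefSeq gives them on GRCm38.p6, from 250 bases before to 50 after the start. That of Gfap lies at chr11:102897151-102897450 on the minus strand and that of Slc1a2 at chr2:102706188-102706487 on the plus strand. Capitals mark the only match to any motif searched.
Gfap: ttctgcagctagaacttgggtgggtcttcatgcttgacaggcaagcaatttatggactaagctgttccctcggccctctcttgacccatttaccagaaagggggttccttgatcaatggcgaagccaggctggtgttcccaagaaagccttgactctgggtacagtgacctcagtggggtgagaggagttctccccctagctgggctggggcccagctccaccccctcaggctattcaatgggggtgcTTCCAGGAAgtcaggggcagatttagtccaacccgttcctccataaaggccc
Slc1a2: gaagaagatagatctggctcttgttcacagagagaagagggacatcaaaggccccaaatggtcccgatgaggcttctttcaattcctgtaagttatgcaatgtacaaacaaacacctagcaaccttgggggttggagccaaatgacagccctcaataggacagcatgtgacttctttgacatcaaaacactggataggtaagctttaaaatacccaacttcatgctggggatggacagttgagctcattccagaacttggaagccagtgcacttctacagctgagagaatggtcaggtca
The motifs were the STAT form TTCNNNGAA, the NFI form of TTGGC and GCCAA set 5 bases apart, its shorter form TTGGCA, the AP-1 form TGANTCA and the TATA form TATAAA, all on both strands. The Gfap match is TTCCAGGAA, a STAT form, from -2 to 6 around the start. This form is held by 8.3% of 32851 mouse promoters of this length. RefSeq promoters were matched for 9 of the 10 genes, 12 promoters in all. A promoter of Aldoc held 2 STAT matches and its other promoter 1 TTGGCA, which 14.1% of promoters hold. S100b held 1 TTGGCA and Gja1 1 AP-1 form, which 7.81% of promoters hold. The promoters of Slc1a2, Slc4a4, Mlc1, Fgfr3 and Aldh1l1 held none of these letters in the window. The longer NFI form (0.0365% of promoters) and TATAAA (13.6%) had no match in the 12 promoters.

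One tumour has to be described before the comparisons. ZNF668 replicate 9, labelled UNKNOWN, had the lowest log2 value of the 24 tumours in 8 of the 10 genes. There Gfap was 8.34, Aqp4 7.95, Aldh1l1 4.93 and Slc1a2 4.02. Gja1, the gap junction protein connexin 43, was 9.63, Slc4a4 7.84, Mlc1 8.59 and Fgfr3 7.11. Mlc1 encodes a membrane protein of astrocyte endfeet and Fgfr3 a fibroblast growth factor receptor of astrocytes and their precursors. The exceptions were Aldoc, a glycolytic aldolase, at 12.46 and S100b, a calcium-binding protein also made by oligodendrocyte lineage cells, at 11.08. In the same tumour the mean of 37 reactive astrocyte genes (6.67), of 22 other astrocyte transport and homeostasis genes (7.46) and of 37 other astrocyte genes (7.57) was also the lowest of the 24. Its mean of 11 mature oligodendrocyte genes (10.87) and of 17 endothelial genes (8.23) was the highest of the 24. The part of these other cell types in its astrocyte values was not tested.

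The genes differed widely in how much they varied over the tumours, against a median standard deviation of 0.44 for all genes tested. Aldh1l1, a folate enzyme used as a general astrocyte marker, had a standard deviation of 1.63, above 98.8% of genes, and ranged over 6.55 log2 units. Slc1a2 followed with 1.10, while Gfap, Aqp4, S100b, Slc4a4, Mlc1, Gja1 and Fgfr3 lay between 0.67 and 0.94. Aldoc varied least by the probe set used, with a standard deviation of 0.39, below the median gene. That probe set was very bright, with a mean log2 value of 12.69. The other Aldoc probe set had a mean of 9.55, a standard deviation of 1.04 and r = 0.81 with the one used. Whether brightness limited the spread was not tested.

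**Figure D1:**
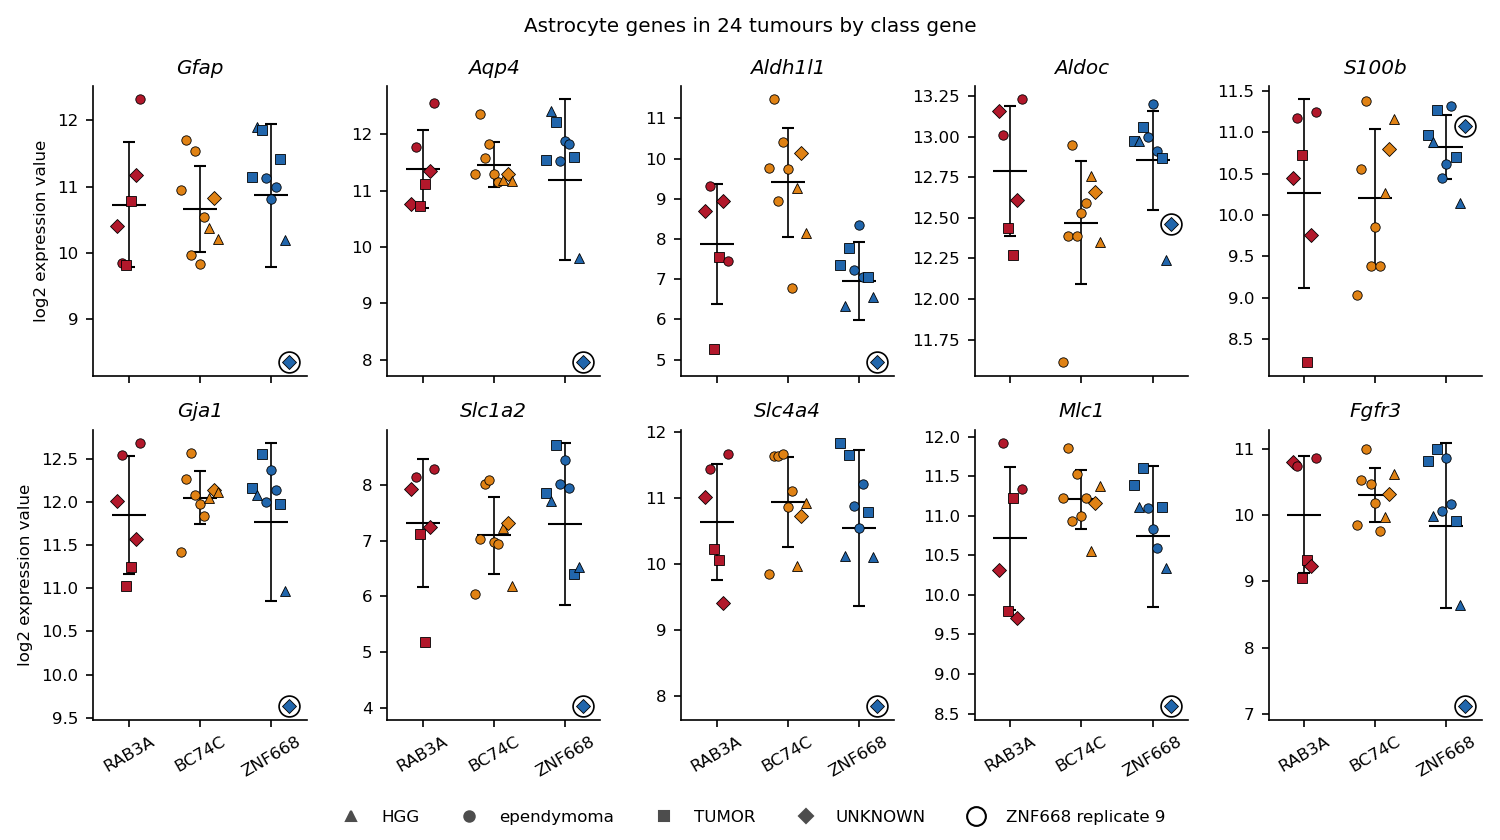
Log2 expression value (y axis) of the 10 genes in RAB3A, BC74C and ZNF668 tumours (x axis). Each point is 1 tumour with its shape giving the tumour label, bars show mean ± SD (n = 6, 9 and 9), and a ring marks ZNF668 replicate 9, which is the lowest point in 8 of the 10 panels.

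Whether the class genes gave tumours with different astrocyte gene expression was asked with limma across all genes. Aldh1l1 was the only member whose class gene means lay more than 1 log2 unit apart, and neither Gfap nor the transport genes passed the test. None of the 10 genes passed an adjusted p of 0.05 between RAB3A and ZNF668 tumours, where 0.0757% of all genes passed, nor between BC74C and ZNF668 tumours, where 0.303% passed. None passed between RAB3A and BC74C tumours either, where 0% of all genes passed. At an unadjusted p under 0.05 the counts were 0 of 10 for RAB3A minus ZNF668 (9.21% of all genes), 2 for BC74C minus ZNF668 (6.88%) and 1 for RAB3A minus BC74C (8.21%). The median standard error of a gene's log2 difference was 0.23, 0.20 and 0.23 in these comparisons. The first and second of them share the ZNF668 tumours.

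Over the 24 tumours Gfap showed no ordering of the class genes that passed the test. Its log2 values had a lowest, median and highest of 9.81, 10.60 and 12.32 in RAB3A tumours, 9.83, 10.54 and 11.71 in BC74C tumours, and 8.34, 11.13 and 11.90 in ZNF668 tumours. The 3 ranges overlapped almost wholly, and both the highest and some of the lowest values came from RAB3A tumours. The log2 difference was -0.14 (SE 0.45) for RAB3A minus ZNF668, with limma's adjusted p = 0.903, and -0.21 (SE 0.40) for BC74C minus ZNF668, with adjusted p = 0.982. Its other probe sets followed it across the 24 tumours with r = 0.95 each and gave differences of -0.47 and -0.48 for RAB3A minus ZNF668, and of -0.31 and -0.31 for BC74C minus ZNF668. Leaving out 1 tumour took these differences of the probe set used as low as -0.46 and -0.52, the latter without ZNF668 replicate 9. No such fit passed. In tumours whose titles begin with elw, Gfap was 9.81 to 10.78 in RAB3A, 9.83 to 11.71 in BC74C and 10.81 to 11.90 in ZNF668 tumours. In those beginning with mmr it was 11.18 and 12.32 in RAB3A and 8.34, 10.19 and 11.42 in ZNF668 tumours. Every elw RAB3A value thus lay below every elw ZNF668 value. The share of all genes separated in this way was not counted. RAB3A minus ZNF668 was negative in elw and positive in mmr tumours, the latter looked at after seeing the data, and Gfap passed in neither.

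The 3 transport genes were likewise spread within each class gene. Slc1a2 had a lowest, median and highest log2 value of 5.18, 7.60 and 8.29 in RAB3A tumours, 6.04, 7.04 and 8.10 in BC74C tumours, and 4.02, 7.87 and 8.72 in ZNF668 tumours. Slc4a4 had 9.40, 10.62 and 11.66 in RAB3A tumours, 9.85, 10.93 and 11.67 in BC74C tumours, and 7.84, 10.78 and 11.83 in ZNF668 tumours. Aqp4 had 10.73, 11.23 and 12.55 in RAB3A tumours, 11.15, 11.29 and 12.36 in BC74C tumours, and 7.95, 11.60 and 12.42 in ZNF668 tumours. In each gene the groups overlapped and the lowest value was that of ZNF668 replicate 9. Their log2 differences lay between 0.019 and 0.19 for RAB3A minus ZNF668, and between -0.20 and 0.38 for BC74C minus ZNF668. The adjusted p was at least 0.859 for each of the 3 genes in each of the 3 comparisons. Without ZNF668 replicate 9 the differences for Aqp4, Slc1a2 and Slc4a4 were -0.22, -0.39 and -0.26 for RAB3A minus ZNF668, so that all 3 changed sign. For BC74C minus ZNF668 they were then -0.14, -0.61 and 0.046, with adjusted p values of at least 0.63 in both comparisons.

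Aldh1l1 had its highest values in BC74C tumours. The lowest, median and highest log2 values were 5.26, 8.13 and 9.32 in RAB3A tumours, 6.79, 9.74 and 11.48 in BC74C tumours, and 4.93, 7.06 and 8.34 in ZNF668 tumours. RAB3A tumours averaged 7.88 ± 1.49 (SD, n = 6), BC74C tumours 9.41 ± 1.36 (SD, n = 9) and ZNF668 tumours 6.96 ± 0.97 (SD, n = 9). Of the 9 BC74C tumours, 8 lay above the mean of the ZNF668 tumours, and only replicate 6 at 6.79 and replicate 9 at 8.15 lay below the highest ZNF668 value. BC74C minus ZNF668 was 2.45 (SE 0.56), with limma's adjusted p = 0.0606, the 46th smallest p of the 13218 genes. RAB3A tumours lay between. RAB3A minus ZNF668 was 0.92 (SE 0.63, adjusted p = 0.59). RAB3A minus BC74C was -1.53 (SE 0.63, adjusted p = 0.506), larger than the standard deviation of either group and with 0 of 6 RAB3A tumours above the BC74C mean, but not past the adjusted threshold.

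The Aldh1l1 difference lay close to the threshold and crossed it in 4 of the 24 fits that each left out 1 tumour. Without BC74C replicate 6 it was 2.78 (adjusted p = 0.0189), without BC74C replicate 9 2.61 (adjusted p = 0.0457) and without ZNF668 replicate 5 2.63 (adjusted p = 0.0376). Without RAB3A replicate 3 the difference was 2.45 and its adjusted p 0.0273. Across all 24 fits it ranged from 2.20 to 2.78 with adjusted p values from 0.0189 to 0.135. It was 2.22 (adjusted p = 0.243) among the tumours whose titles begin with elw, which hold 8 BC74C and 6 ZNF668 tumours, and 2.30 (adjusted p = 0.121) with the title prefix as a covariate. The gene's second probe set, with a mean log2 value of 4.24, gave a difference of 0.48, although it followed the first across the 24 tumours (r = 0.82). With the mean of both the difference was 1.47 (adjusted p = 0.0582). With array weights, which count tumours far from the fit less, it was 2.32 and passed (adjusted p = 0.0156).

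Aldoc and S100b ran the other way between the same class genes, without passing the test. Aldoc had a lowest, median and highest log2 value of 11.61, 12.53 and 12.95 in BC74C tumours and 12.24, 12.97 and 13.20 in ZNF668 tumours, a difference of -0.38 (SE 0.16, adjusted p = 0.592). Its other probe set gave a difference of -0.84. For RAB3A minus BC74C the other probe set gave 1.18, against 0.32 with the one used. S100b had 9.04, 10.27 and 11.38 in BC74C tumours and 10.14, 10.88 and 11.32 in ZNF668 tumours, a difference of -0.62 (SE 0.35, adjusted p = 0.848). Only 1 BC74C tumour for Aldoc and 2 for S100b lay above the ZNF668 mean, yet the ranges overlapped. The mean of the oligodendrocyte progenitor list, 9 genes of a cell type that also makes S100b, for BC74C tumours was 7.66 ± 0.50 (SD, n = 9), against 8.60 ± 0.63 (SD, n = 9) for ZNF668 tumours. Its range was 6.91 to 8.43 in BC74C and 7.26 to 9.52 in ZNF668 tumours. All 9 of its 9 genes had a negative difference, where 51.2% of all genes tested had a positive one, and 0 of the 9 passed the adjusted threshold. The part of this list in the S100b values was not tested. Mlc1, Fgfr3 and Gja1 had differences of 0.47, 0.46 and 0.28 for BC74C minus ZNF668, with adjusted p values of at least 0.923. They were 0.20, 0.12 and 0.018 without ZNF668 replicate 9.

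**Figure D2:**
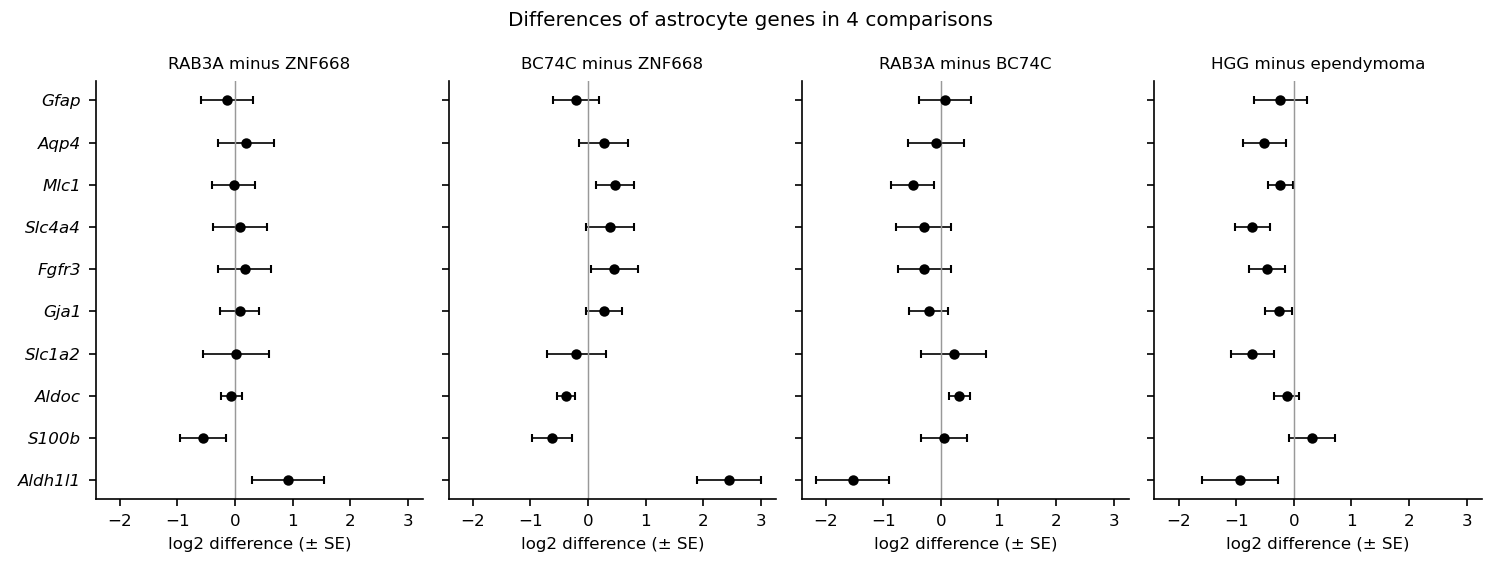
Log2 difference (x axis, points with ± SE bars) of each of the 10 genes (y axis) for RAB3A minus ZNF668, BC74C minus ZNF668, RAB3A minus BC74C and HGG minus ependymoma. The Aldh1l1 difference of 2.45 for BC74C minus ZNF668 is the point farthest from 0, and no point passed the adjusted threshold.

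The tumour labels were compared in the 15 tumours labelled HGG or ependymoma, with the class gene as a covariate. Slc4a4 was the only member with an unadjusted p under 0.05. Its log2 values in the HGG tumours were 9.97 and 10.93 in BC74C and 10.10 and 10.12 in ZNF668, against a lowest, median and highest of 9.85, 11.21 and 11.67 in the 11 ependymoma tumours. All 4 HGG tumours lay below the ependymoma mean of 11.14, and BC74C replicate 1 was the lowest of the ependymoma tumours. The difference was -0.72 (SE 0.30), with limma's adjusted p = 1. None of the 10 genes passed after adjustment (0% of all genes passed), and at an unadjusted p under 0.05 it was 1 of 10 against 1.73% of all genes. Aldh1l1 had a larger difference with a larger error, -0.94 (SE 0.66, adjusted p = 1). It was 8.15 and 9.27 in BC74C and 6.33 and 6.56 in ZNF668 tumours labelled HGG, against 6.79, 8.94 and 11.48 in ependymoma tumours.

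The other transport genes also had negative differences, but that of Aqp4 depended on 1 tumour. Slc1a2 was 6.19 and 7.23 in BC74C and 6.53 and 7.72 in ZNF668 tumours labelled HGG, against a lowest, median and highest of 6.04, 8.03 and 8.46 in ependymoma tumours. Aqp4 was 11.17 and 11.18 in BC74C and 9.80 and 12.42 in ZNF668 tumours labelled HGG, against 11.15, 11.78 and 12.55 in ependymoma tumours. In both genes 3 of the 4 HGG tumours lay below the ependymoma mean and ZNF668 replicate 2 lay above it. The log2 difference was -0.72 (SE 0.37, adjusted p = 1) for Slc1a2 and -0.51 (SE 0.37, adjusted p = 1) for Aqp4. Without ZNF668 replicate 8, the HGG tumour with the Aqp4 value of 9.80, they were -0.46 and -0.048, and -0.70 for Slc4a4. Gfap was 10.21 and 10.37 in BC74C and 10.19 and 11.90 in ZNF668 tumours labelled HGG, against 9.83, 10.95 and 12.32 in ependymoma tumours, a difference of -0.23 (SE 0.46, adjusted p = 1). The HGG value of 11.90, from ZNF668 replicate 2, lay well above the other 3.

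Over the 10 genes, 1 had a positive HGG minus ependymoma difference, S100b at 0.31, and the median was -0.36. Over all genes tested 50.2% were positive and the median was 0.00085. In the same comparison 1 of 19 mature neuron genes was positive (median -0.76), and their mean ranged from 6.46 to 9.68 in HGG and from 6.61 to 9.59 in ependymoma tumours. Of 22 proliferation genes 21 were positive (median 0.55), and their mean was 8.01 ± 1.25 (SD, n = 4) in HGG and 7.14 ± 1.33 (SD, n = 11) in ependymoma tumours. With the neuron list as a covariate the differences were -0.72 for Slc4a4, -0.49 for Slc1a2 and -0.53 for Aqp4. The part of the proliferation genes in the astrocyte values was not tested. Within the elw tumours, which hold 2 of the 4 HGG tumours, the differences were -0.97 for Slc4a4, -0.18 for Slc1a2 and 0.10 for Aqp4, the last with its sign turned. Whether the label difference itself differed between BC74C and ZNF668 was tested as an interaction in 13 tumours. None of the 10 genes passed at an adjusted p of 0.05 (0% of all genes) or at an unadjusted p under 0.05 (8.16%), and the median standard error of a gene's interaction was 0.49.

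The tumours labelled TUMOR or UNKNOWN entered no comparison of labels. Gfap had a lowest, median and highest of 9.81, 11.14 and 11.86 in the 5 TUMOR tumours and of 8.34, 10.62 and 11.18 in the 4 UNKNOWN tumours. Slc1a2 had 5.18, 7.12 and 8.72 in TUMOR and 4.02, 7.29 and 7.94 in UNKNOWN tumours. Both lowest UNKNOWN values were those of ZNF668 replicate 9, and the lowest TUMOR values came from RAB3A tumours.

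Since no member passed between class genes or labels, the genes were also compared with each other across tumours. Gfap ran most closely with Aqp4, and less with Slc1a2 and Slc4a4. Across 24 tumours Gfap and Aqp4 had Pearson's r = 0.82 (permutation p = 1e-05, the smallest 100000 permutations can give, and 0.00028 after Benjamini-Hochberg adjustment over 28 relations). Spearman's rho was 0.76 (permutation p = 2e-05, adjusted 0.00056). It was the only relation of the 28 to pass in both title groups, with r = 0.70 (permutation p = 0.00138, adjusted 0.0386) in the 18 elw tumours and r = 0.96 (exact permutation p = 0.00139, adjusted 0.0389) in the 6 mmr tumours. Once the 2 tumours most distant from the Gfap median were left out, r was 0.65 (adjusted p = 0.0171), and without ZNF668 replicate 9 it was 0.70 (adjusted p = 0.00252).

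The other relations of Gfap that passed rested on ZNF668 replicate 9. With Slc1a2 r was 0.53 (permutation p = 0.00905, adjusted 0.0317) and rho 0.38 (permutation p = 0.0702, adjusted 0.232). With Slc4a4 r was 0.52 (permutation p = 0.011, adjusted 0.0342) and rho 0.36 (permutation p = 0.0862, adjusted 0.232). Without ZNF668 replicate 9 r was 0.26 (adjusted p = 0.453) and 0.21 (adjusted p = 0.487). Without those 2 most distant tumours it was 0.19 and 0.11. With the mean of all probe sets of a gene it was 0.32 (adjusted p = 0.284) and 0.33 (adjusted p = 0.281). The other Slc1a2 probe set had r = 0.38 with the one used, and the 3 others of Slc4a4 0.80, 0.54 and 0.33, the last of them below the filter on dim genes. In elw tumours r was 0.17 for both, and in the 6 mmr tumours, which include ZNF668 replicate 9, 0.94 and 0.82 (exact permutation p = 0.0111 and 0.0458, adjusted 0.14 and 0.194).

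The same held for Gja1, Mlc1 and Fgfr3. Their r with Gfap was 0.61, 0.60 and 0.54 over 24 tumours, with permutation p = 0.00314, 0.00304 and 0.00895 and adjusted values of 0.0147, 0.0147 and 0.0317. Their rho was 0.40, 0.45 and 0.30, with permutation p = 0.052, 0.0294 and 0.154, none passing after adjustment. Without ZNF668 replicate 9 r was 0.33, 0.34 and 0.23, without the 2 farthest tumours 0.22, 0.32 and 0.15, in elw tumours 0.20, 0.46 and 0.18, and in mmr tumours 0.90, 0.73 and 0.82. The r of Gfap with Aldh1l1 was 0.26, with Aldoc 0.25 and with S100b -0.039 (permutation p = 0.222, 0.237 and 0.856, adjusted 0.443, 0.443 and 0.888), with rho 0.11, 0.29 and 0.02 (permutation p = 0.606, 0.167 and 0.928). With the mean of all probe sets the r of Gfap with Aldoc was 0.51 (permutation p = 0.0123, adjusted 0.069). For Aldh1l1 and S100b it was then 0.20 and 0.033. In all, 9 of the 12 relations between genes passed by r and 4 by rho, and 1 passed by r without ZNF668 replicate 9.

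The transport genes ran together. Slc1a2 with Slc4a4 had r = 0.73 (permutation p = 0.00017, adjusted 0.00238) and rho = 0.60 (permutation p = 0.00224, adjusted 0.0209). Slc1a2 with Aqp4 had r = 0.73 (permutation p = 0.00036, adjusted 0.00336) and rho = 0.67 (permutation p = 0.00053, adjusted 0.00742). Slc4a4 with Aqp4 had r = 0.74 (permutation p = 0.00064, adjusted 0.00448) and rho = 0.55 (permutation p = 0.00646, adjusted 0.0452). Without ZNF668 replicate 9 r was 0.54, 0.51 and 0.48, none passing (adjusted p = 0.106, 0.123 and 0.143). The rho was then 0.55, 0.62 and 0.48, of which that of Slc1a2 with Aqp4 still passed (adjusted p = 0.0753, 0.0253 and 0.114). With the mean of all probe sets r was 0.47, 0.57 and 0.61 (adjusted p = 0.0787, 0.0362 and 0.0168). With the 2 tumours most distant from the median left out, r was 0.50, 0.52 and 0.51 for the same pairs. In elw tumours it was 0.58, 0.44 and 0.39, and in mmr tumours 0.79, 0.90 and 0.87, none passing after adjustment.

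The remaining 16 relations set Gfap, Slc1a2, Slc4a4 and Aqp4 against the means of the mature neuron, proliferation, ependymal, and microglia and macrophage lists. Their r lay between -0.32 and 0.37, and 0 of 16 passed after adjustment or at an unadjusted p under 0.05, the smallest adjusted p being 0.209. Gfap had r = 0.37 with the microglia and macrophage list and -0.32 with the mature neuron list (permutation p = 0.0745 and 0.126, adjusted 0.209 and 0.322). With ZNF668 replicate 9 left out, 2 of the 16 had an unadjusted p under 0.05 by r and none passed after adjustment. The r of the proliferation list was then -0.45 with Slc1a2 (permutation p = 0.0313, adjusted 0.175) and -0.42 with Slc4a4 (permutation p = 0.0455, adjusted 0.212), against -0.18 and -0.14 over 24 tumours.

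Over all 45 pairs of the 10 genes, described without a test, 26 had r above 0.5 and 4 had r below 0. The closest pair was Gja1 and Fgfr3, with r = 0.96 over 24 tumours and 0.92 without ZNF668 replicate 9. Gja1 had r = 0.89 with Aqp4, 0.85 with Slc4a4 and 0.82 with Slc1a2. Aldoc and S100b, the 2 genes that were not low in ZNF668 replicate 9, had r = 0.62 with each other, and 0.65 without that tumour. Aldoc also ran with Slc1a2, at 0.68 and at 0.77 without that tumour, while its r with Mlc1 was 0.11. Aldh1l1 had r = -0.21 to S100b and -0.15 to Aldoc, and none of its r values exceeded 0.55. S100b also had low values, with r = -0.039 to Gfap, -0.043 to Mlc1 and 0.10 to Aqp4. Its r with Gja1 was 0.31 over 24 tumours and 0.63 without ZNF668 replicate 9. All points share the same 24 arrays.

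**Figure D3:**
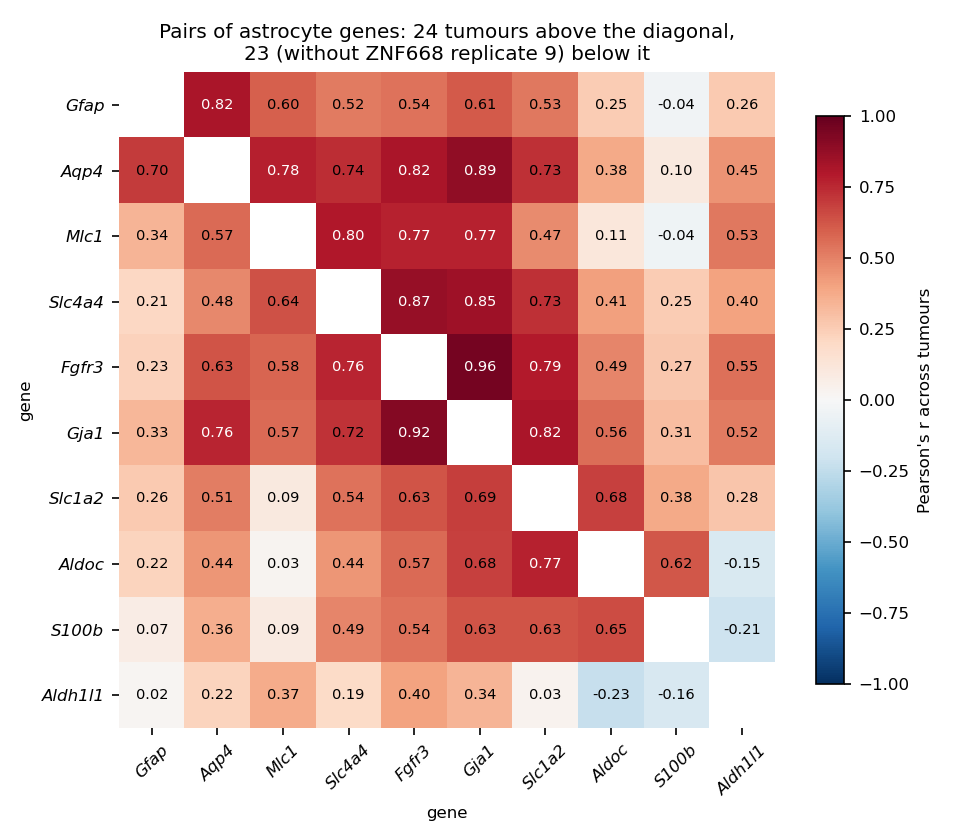
Pearson's r between each pair of the 10 genes (both axes), from -1 (blue) to 1 (red), over 24 tumours above the diagonal and over 23 tumours without ZNF668 replicate 9 below it. The Gfap and Aqp4 pair has 0.82 and 0.70, while Gfap and Slc1a2 have 0.53 and 0.26.

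The balance of filament to transport expression was expressed per tumour as the deviation of Gfap from its mean over 24 tumours minus the mean deviation of Slc1a2, Slc4a4 and Aqp4, each probe set being set only against itself. It ranged over 2.60 log2 units, a 6.08-fold range, with a standard deviation of 0.70, and 14 of 24 tumours lay within 0.5 of 0. The lowest balances were -1.60 in RAB3A replicate 2 and -1.44 in BC74C replicate 3, both labelled ependymoma. In these tumours Gfap deviated by -0.90 and -0.79 while the transport genes deviated by 0.69 and 0.65. The highest were 1.01 in RAB3A replicate 4, labelled TUMOR, and 0.90 in BC74C replicate 1, labelled ependymoma. There Gfap was near its mean, at 0.027 and 0.20, and the transport genes deviated by -0.98 and -0.70. Each extreme thus held a RAB3A and a BC74C tumour.

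ZNF668 replicate 9 was low in both, with deviations of -2.41 for Gfap and -3.16 for the transport genes and a balance of 0.75. RAB3A replicate 6 was high in both, with 1.56 and 1.07 and a balance of 0.49. For RAB3A tumours the mean balance was -0.044 ± 1.01 (SD, n = 6), for BC74C tumours -0.16 ± 0.67 (SD, n = 9), and for ZNF668 tumours 0.19 ± 0.52 (SD, n = 9). It averaged 0.23 ± 0.47 (SD, n = 4) in HGG and -0.28 ± 0.78 (SD, n = 11) in ependymoma tumours. Every difference between these means was smaller than the larger of the 2 standard deviations, and as a value built from chosen genes the balance was given no test.

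**Figure D4:**
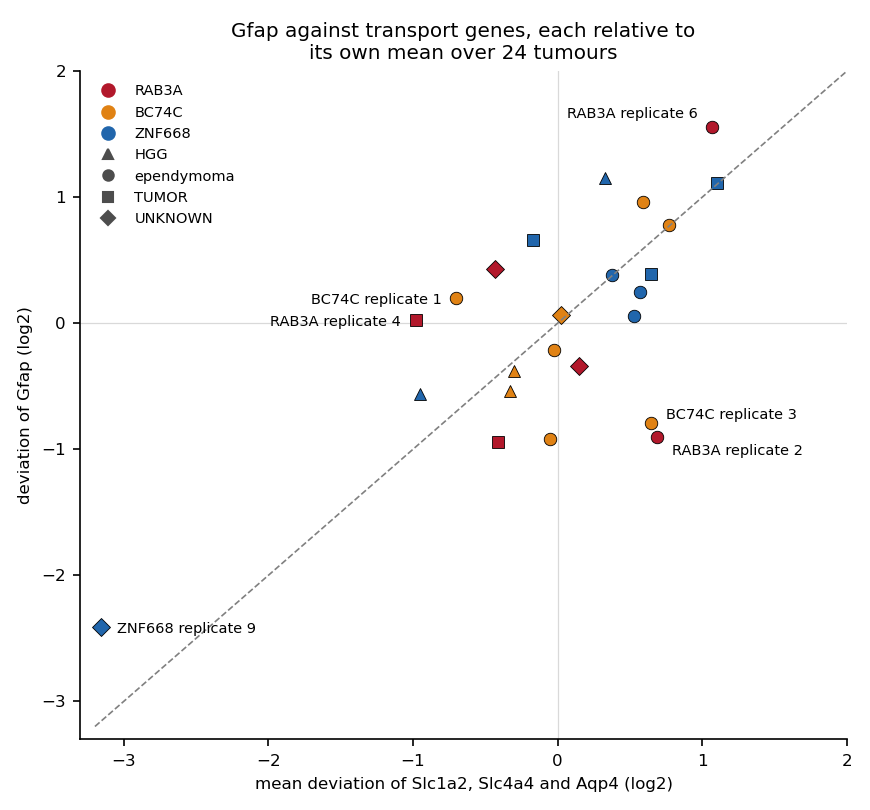
Deviation of Gfap (y axis, log2) against the mean deviation of Slc1a2, Slc4a4 and Aqp4 (x axis, log2), each from its own mean over 24 tumours. Each point is 1 tumour, coloured by class gene and shaped by label, and the dashed line marks equal deviations. RAB3A replicate 2 and BC74C replicate 3 lie farthest below the line, RAB3A replicate 4 and BC74C replicate 1 farthest above it, and ZNF668 replicate 9 is at the lower left.

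Other cell type lists were read in the tumours at the extremes of the balance. In RAB3A replicate 2 and BC74C replicate 3 the mean of 22 proliferation genes was 5.10 and 5.46, ranks 23 and 22 of 24 from the highest, and that of 17 microglia and macrophage genes was 7.64 and 7.73, ranks 23 and 21. The mean of 19 mature neuron genes was 9.41 and 9.42 there, ranks 6 and 5. The reactive astrocyte mean of these 2 tumours was 7.25 and 6.89, ranks 19 and 22. In RAB3A replicate 4 the microglia and macrophage mean of 9.91 was the highest of the 24, and its reactive astrocyte mean of 7.89 ranked 13. In BC74C replicate 1 the reactive astrocyte mean of 8.54 was the highest, and the microglia and macrophage mean of 8.75 ranked 6. The proliferation mean was 6.18 and 8.55 in RAB3A replicate 4 and BC74C replicate 1, ranks 18 and 6. Their mature neuron means ranked 7 and 19. At 9.35 the neuron mean of RAB3A replicate 4 was close to those of the tumours with the lowest balances. In RAB3A replicate 4 and BC74C replicate 1 S100b was low, at 8.22 and 9.04 against a mean of 10.45 over the 24. In RAB3A replicate 2 and BC74C replicate 3 it was 11.17 and 11.38. The mean of 11 mature oligodendrocyte genes was 8.64 in RAB3A replicate 4 and 5.42 in BC74C replicate 1, ranks 10 and 24. It was 7.80 in RAB3A replicate 2 and 10.34 in BC74C replicate 3, ranks 18 and 2. The part of these other cell types in the balance was not tested.

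Other genes of the astrocyte programme were set against both profiles with Pearson's r over the 24 tumours, as a description. Of 37 reactive astrocyte genes, induced in reactive astrocytes after injury or inflammation, 31 ran closer to Gfap than to the transport mean, against 49.1% of all 13208 other genes tested. Of these 37, 17 (45.9%) had r above 0.5 with Gfap, against 4.29% of all genes, and 2 (5.41%) with the transport mean. The genes that leaned most to Gfap were Lgals3, a galectin also abundant in macrophages (r = 0.47 with Gfap, -0.08 with the transport mean), S1pr3, a sphingosine phosphate receptor (0.72 and 0.20), and Emp1, a membrane protein of reactive astrocytes (0.54 and 0.036). Those at the other end were Slc10a6, a transporter (0.42 with Gfap and 0.61 with the transport mean), Fkbp5, a glucocorticoid-induced chaperone (0.27 and 0.38), and Synm, an intermediate filament protein (-0.44 and -0.35). In the 23 tumours other than ZNF668 replicate 9, 28 of the 37 ran closer to Gfap and 12 had r above 0.5 with it. Of all 13208 other genes 6565 and 218 did so in these 23 tumours. There Lgals3, S1pr3 and Emp1 had r = 0.46, 0.73 and 0.59 with Gfap, and -0.34, 0.012 and -0.07 with the transport mean. Slc10a6, Fkbp5 and Synm had 0.34, 0.074 and -0.31 with Gfap, and 0.63, 0.18 and -0.14 with the transport mean.

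The 22 measured genes of astrocyte transport and homeostasis leaned the other way. Of them 2 ran closer to Gfap than to the transport mean, 3 without ZNF668 replicate 9, and 15 (68.2%) had r above 0.5 with the transport mean, against 4.51% of all genes. The lowest in their lean to Gfap were Slc39a12, a zinc transporter (0.32 with Gfap, 0.81 with the transport mean), Atp13a4, an ion pump of the P-type family (0.34 and 0.76), and Slc7a10, a neutral amino acid transporter of astrocytes (0.30 and 0.71). The highest were Slco1c1, a thyroid hormone transporter also of brain endothelium (-0.14 and -0.24), Slc13a3, a dicarboxylate transporter (0.57 and 0.49), and Slc1a3, the other astrocyte glutamate transporter (0.32 and 0.36). In the 23 other tumours, 9 of the 22 had r above 0.5 with the transport mean, against 362 of all 13208 other genes. Slc39a12, Atp13a4 and Slc7a10 then had r = -0.0082, 0.082 and -0.034 with Gfap, and 0.71, 0.69 and 0.54 with the transport mean. Slco1c1, Slc13a3 and Slc1a3 had 0.13, 0.54 and 0.03 with Gfap, and 0.10, 0.48 and -0.042 with the transport mean.

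Of 37 other astrocyte genes, 6 ran closer to Gfap with and without that tumour, and 28 (75.7%) had r above 0.5 with the transport mean, 15 without it. Those that leaned most to the transport genes were Etnppl, a phospholyase of astrocytes (-0.10 with Gfap, 0.39 with the transport mean), Ntsr2, a neurotensin receptor (0.15 and 0.60), and Cldn10, a claudin (0.43 and 0.83). Those that leaned most to Gfap were Chrdl1, a secreted BMP antagonist (0.22 and -0.067), Nfib, a transcription factor of gliogenesis (0.33 and 0.22), and Id3, an inhibitor of DNA binding (0.73 and 0.63). Without ZNF668 replicate 9, the r of Etnppl, Ntsr2 and Cldn10 with Gfap was -0.27, -0.35 and 0.062. With the transport mean it was then 0.37, 0.23 and 0.66. For Chrdl1, Nfib and Id3 it was 0.087, 0.13 and 0.62 with Gfap, and -0.41, -0.11 and 0.42 with the transport mean. Running closer to Gfap was not particular to reactive genes. It held for 22 of 22 proliferation genes, 15 of 17 microglia and macrophage genes and 12 of 14 ependymal genes. In the first 2 of these lists none had r above 0.5 with Gfap, and in the third 1 had. Running closer to the transport mean was not particular to transport genes either. Closer to Gfap were 0 of 19 mature neuron genes and 1 of 11 mature oligodendrocyte genes. In both lists none had r above 0.5 with the transport mean. Radial glia genes did follow it in part. Of 20 such genes 9 (45%) had r above 0.5 with the transport mean, 2 without ZNF668 replicate 9, and 9 ran closer to Gfap. No gene of the reactive, transport or other astrocyte lists passed an adjusted p of 0.05 in any of the comparisons by limma.

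**Figure D5:**
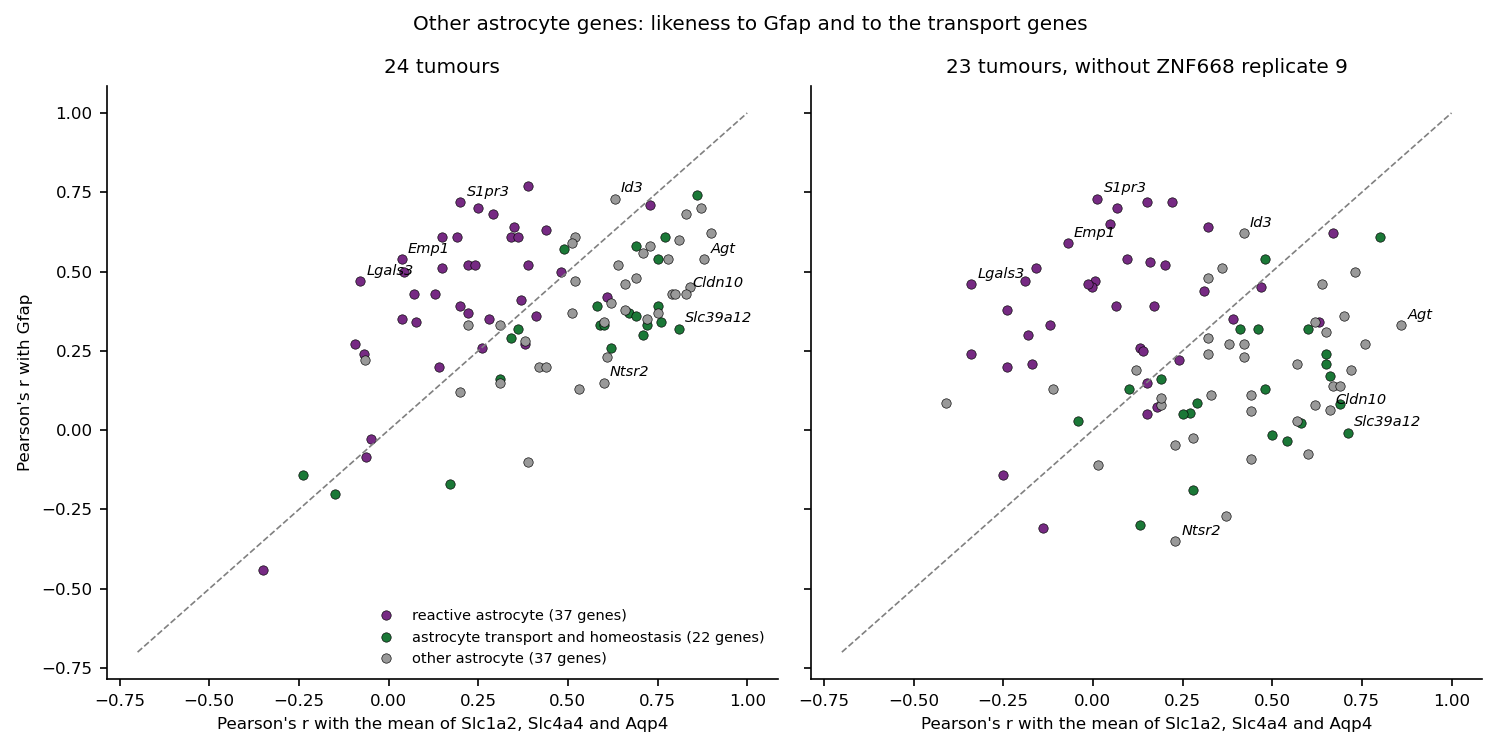
Pearson's r with Gfap (y axis) against r with the mean of Slc1a2, Slc4a4 and Aqp4 (x axis) for 37 reactive astrocyte, 22 astrocyte transport and homeostasis and 37 other astrocyte genes, over 24 tumours (left) and without ZNF668 replicate 9 (right). Points above the dashed line ran closer to Gfap, which held for 31 reactive, 2 transport and 6 other genes on the left and for 28, 3 and 6 on the right.

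Among all 13208 other genes, those most like Gfap across the 24 tumours were Cebpd, a transcription factor induced in inflammation (r = 0.81), Lpcat3, a phospholipid acyltransferase (0.79), Cdyl and Chd1l, both chromatin proteins (0.78 each), and S100a4, a calcium-binding protein (0.78). Without ZNF668 replicate 9 these were 0.71, 0.70, 0.73, 0.69 and 0.86. S100a4 had r = 0.25 with the transport mean, and its lowest log2 value, 6.35, was in RAB3A replicate 2. The lowest r with Gfap belonged to Arid4a (-0.73), Elavl4, a neuronal RNA-binding protein (-0.73), and Smim10l1 (-0.71). The genes most like the transport mean were F3, tissue factor (0.90), Ntrk2, a neurotrophin receptor that astrocytes express in truncated form (0.90), Hacd2, an enzyme of fatty acid elongation (0.90), Mt1, a metallothionein (0.88), and Agt, angiotensinogen (0.88). In those 23 tumours they had 0.76, 0.77, 0.79, 0.71 and 0.86. The lowest were Drosha, the nuclease of microRNA processing (-0.75), Pisd-ps3, a pseudogene (-0.71), and Aspdh, an enzyme of the aspartate dehydrogenase family (-0.71). Each of these 3 was highest in ZNF668 replicate 9.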

How the data were processed

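Total RNA was extracted with Trizol and measured on 1 single-colour array for each tumour, according to the labels' protocols. The deposited table holds 1 log2 expression value for each of 45141 probe sets and 24 tumours, made by the authors with Partek 6.6 per the submitters' processing notes. The background correction and normalization are not given in the sources used here. Array medians lay between 4.98 and 5.19, so a shift shared by most genes could not be seen, and signal over background was not assessed. All sample columns were mapped (0 left over).

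The 104 control probe sets were left out. Probe sets with 1 gene symbol numbered 28898, with several 551 and with none 15588, and 28689 were matched to RefSeq by Entrez identifier. Each of 17097 genes was represented by its brightest probe set, and 13218 lay above the 30th percentile of probe set means. Class genes were compared with limma 3.58.1 in R 4.3.3 (eBayes with an intensity trend, two-sided) in 1 model of 24 tumours, and HGG with ependymoma in 15 tumours with the class gene as covariate, adjusting p by Benjamini-Hochberg over all 13218 genes and calling those under 0.05. The fits were tested on simulated data. Correlations used two-sided permutation tests, exact or with 100000 permutations, adjusted over 28 relations. Python 3.11.15, pandas 2.3.3, numpy 2.4.6, scipy 1.17.1 and matplotlib 3.10.9 were used for the rest.

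Replicates are numbered in order of deposit. A title prefix, elw for 18 tumours and mmr for 6 (2 RAB3A, 1 BC74C, 3 ZNF668), was used as a possible batch. The members and lists were chosen with earlier results of these data known. Of the lists, 37 of 39 reactive, 22 of 25 transport and homeostasis and 37 of 37 other astrocyte genes were measured. The reactive and radial glia lists share Vim, Nes and Tnc, and the radial glia and transport lists share Slc1a3. Named genes are the members, list genes called in a comparison, per list the 3 genes at each end of the correlation with the balance of Gfap to transport, and for either profile the 5 genes most like it and the 3 least like it. Alternatives changed the probe set rule, dim filter, normalization, variance model, array weights, title prefix, neuron covariate and tumours. Expression among mmr tumours alone and correlations without ZNF668 replicate 9 were added after seeing the data.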

Additional observations from a re-analysis of the deposited data

Results flagged for a closer look

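Of 66 groups of a gene, or of the balance of Gfap to transport, within a class gene or label, 11 held a tumour whose gap to the nearest other value exceeded the limit of Dixon's test at 95%. All 11 were groups of a gene, and the 11 ependymoma tumours were not checked as a group. Chance gives about 1 in 20 for independent groups, but these groups share tumours. ZNF668 replicate 9 accounted for 4, with log2 values among the ZNF668 tumours of 8.34 for Gfap (others 10.19 to 11.90), 4.02 for Slc1a2 (others 6.41 to 8.72), 7.84 for Slc4a4 (others 10.10 to 11.83) and 8.59 for Mlc1 (others 10.34 to 11.60).

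In HGG tumours, Gfap was 11.90 in ZNF668 replicate 2 (others 10.19 to 10.37), Gja1 was 10.97 in ZNF668 replicate 8 (others 12.04 to 12.11) and Slc4a4 was 10.93 in BC74C replicate 9 (others 9.97 to 10.12). Among TUMOR tumours, RAB3A replicate 3 had 5.26 for Aldh1l1 (others 7.05 to 7.77) and 9.80 for Mlc1 (others 11.11 to 11.60), and RAB3A replicate 4 had 8.22 for S100b (others 10.70 to 11.27). Aldoc was 11.61 in BC74C replicate 1, where the other BC74C tumours had 12.35 to 12.95.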

How the results depend on the processing

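No member passed in any comparison under any alternative except Aldh1l1 for BC74C minus ZNF668, which passed with array weights (2.32, adjusted p = 0.0156, so that 1 of 10 genes passed, while all genes passing numbered 130 against 40) and in the 4 leave-one-out fits named above (0 to 1 of 10 genes). Over all genes, RAB3A minus ZNF668 had 10 passing, 21 with array weights, 21 in elw tumours and 0 with the neuron list as a covariate, with only the 2 class genes, or in ependymoma or mmr tumours, while BC74C minus ZNF668 had 0 in ependymoma tumours. Of 440 values of a gene under an alternative 393 kept their direction and side of the threshold, 1 passed newly and 46 turned sign, all far from the threshold, and the cause was not tested.

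With the mean of all probe sets these were, for RAB3A minus ZNF668, Aldoc 0.14 and Slc4a4 -0.016, for RAB3A minus BC74C Gfap -0.09 and Aqp4 0.13, and for HGG minus ependymoma Fgfr3 0.022. With array weights they were Aqp4 -0.093, Gja1 -0.03, Slc1a2 -0.29 and Slc4a4 -0.072 for RAB3A minus ZNF668, Aqp4 -0.15 and Slc4a4 -0.038 for BC74C minus ZNF668, and Aqp4 0.061 for RAB3A minus BC74C. In elw tumours, which leave out ZNF668 replicate 9, they were Aqp4 -0.80, Gja1 -0.51, Slc1a2 -1.03, Slc4a4 -0.36 and Fgfr3 -0.50 for RAB3A minus ZNF668, and Aqp4 -0.40, Gja1 -0.18, Slc4a4 -0.10 and Fgfr3 -0.22 for BC74C minus ZNF668. There they were also Gfap -0.50 and Slc1a2 -0.12 for RAB3A minus BC74C, and Gfap 0.22, Aqp4 0.10 and Aldoc 0.15 for HGG minus ependymoma. With the neuron list as a covariate RAB3A minus ZNF668 turned for Gfap (0.11), Slc1a2 (-0.16) and Mlc1 (0.13), and in the mmr tumours, chosen after seeing the data, for Gfap (1.77), Aldoc (0.40) and Mlc1 (0.51). In ependymoma tumours alone it turned for Gfap (0.10), Aldoc (0.085), S100b (0.41) and Mlc1 (0.78), BC74C minus ZNF668 for Aqp4 (-0.16), Gja1 (-0.14) and Fgfr3 (-0.064), and RAB3A minus BC74C for Aqp4 (0.58), Gja1 (0.58), Slc4a4 (0.42), Mlc1 (0.33) and Fgfr3 (0.51). With the title prefix as a covariate RAB3A minus BC74C was 0.10 for Aqp4 and HGG minus ependymoma 0.037 for Aldoc.

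Leaving out 1 tumour at a time, RAB3A minus ZNF668 ranged from -0.46 to 0.042 for Gfap, -0.22 to 0.34 for Aqp4, -0.15 to 0.039 for Aldoc, -0.19 to 0.24 for Gja1, -0.39 to 0.45 for Slc1a2, -0.26 to 0.33 for Slc4a4, -0.30 to 0.17 for Mlc1 and -0.17 to 0.36 for Fgfr3. RAB3A minus BC74C ranged from -0.25 to 0.25 for Gfap, -0.31 to 0.049 for Aqp4 and -0.14 to 0.46 for S100b, and BC74C minus ZNF668 from -0.14 to 0.42 for Aqp4. HGG minus ependymoma ranged from -0.28 to 0.07 for Aldoc, -0.37 to 0.0043 for Gja1 and -0.028 to 0.55 for S100b.

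Of the relations across tumours 9 passed over 24 tumours and with quantile normalization, 4 with the mean of all probe sets, and 1 without the 2 farthest tumours, in elw tumours, in mmr tumours and, in an alternative chosen after seeing the data, without ZNF668 replicate 9. Within RAB3A and within BC74C tumours 0 passed by permutation tests (0 and 3 of 28 at an unadjusted p under 0.05), and within ZNF668 tumours 3. The r of Gfap with Aldoc turned to -0.004 in elw and -0.41 in BC74C tumours, and with S100b to 0.0051 in elw tumours, 0.08 in ZNF668 tumours, 0.073 without ZNF668 replicate 9 and 0.033 with the mean of all probe sets. With Gja1 and Fgfr3 it turned to -0.13 and -0.057 in BC74C tumours. The mean balance of Gfap to transport in each group moved by less than 1 SD under every alternative run. The number of arrays limits the precision, with 4 HGG tumours in the comparison of labels.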
